A study of Mus musculus with 4 samples.

Results

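The transcripts described here are those of 46 mouse genes of mitosis: the kinetochore, the spindle assembly checkpoint, the mitotic kinases and cyclins, and the motors of the spindle. They were taken by symbol from the 17956 single loci of a table of RNA-seq values, and all 46 were found and passed the filter on low values. The libraries came from Lin-Kit+ bone-marrow cells of C57BL/6 mice, the fraction without surface markers of mature blood lineages that carries the Kit receptor and holds stem and progenitor cells. Cells of genotype Asxl1-/- (KO) were set against wild-type cells (WT), with 2 libraries of each, and no other treatment or allele is labelled. The labels do not state the kind of Asxl1 allele, the age of the animals or whether replicates were separate animals, so p-values measure the spread between these libraries. In both genotypes replicate 1 was high in Xist and replicate 2 in Y-linked transcripts, with values given with Pttg1 below. The libraries of a genotype thus differed in sex and did not come from the same animal. ASXL1 works with chromatin-modifying complexes, and its gene is mutated in many human myeloid cancers. The series title links it to cohesin and to the separation of chromatids, which makes the level of the segregation machinery in cells without it a question of the design.

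At mitosis, cyclin-dependent kinase is switched on by cyclins and CDC25 phosphatases, and chromosomes attach to spindle microtubules through kinetochores, the protein complexes built on centromeric chromatin. Unattached kinetochores send the checkpoint signal that keeps the anaphase-promoting complex (APC/C) from its activator CDC20. Once all are attached, securin and cyclin B are destroyed and sister chromatids part. In cycling cells most of these genes are transcribed periodically, with a peak in G2 and M phase, so in a bulk sample fewer cycling cells and less RNA per cell cannot be told apart.

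The machinery of mitosis differed little between KO and WT cells. Of the 46 loci, 0 were called higher and 2 lower in KO at an adjusted p under 0.05 (limma, Benjamini-Hochberg over all 13764 tested loci), which is 4.35%. Over all tested loci 11.9% were called higher and 8.97% lower, 20.9% in either direction. The 2 were Cdc25b, whose phosphatase activates cyclin-dependent kinase, and Mis12, a scaffold subunit of the outer kinetochore. At an unadjusted p under 0.05, 2 loci were higher and 7 lower, against 37.7% of all tested loci in either direction. The edgeR quasi-likelihood test on the recovered reads also called 0 higher and 2 lower, Cdc25b and Plk1, DESeq2 called 0 and 3, and limma-voom called 0 and 1. Over all tested loci edgeR called 11.8% higher and 8.86% lower, 20.6% in either direction, DESeq2 called 25.0% and limma-voom 19.0%.

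The median log2 fold change of KO over WT was -0.02 over the 46 loci and -0.01 over all tested loci. Fitted values lay between -0.60 and 0.21. For 44 of the 46 loci (95.7%) the 95% interval of the change lay inside 1.5-fold in both directions, against 56.3% of all tested loci, and the exceptions were Cdc25b and Pttg1. The loci had 1138 to 91922 reads in a library, and their median SE was 0.06, against 0.10 over all tested loci. Both KO libraries lay below both WT libraries at 17 loci and above them at 6, and the ranges overlapped at 23. Over all tested loci the corresponding shares were 33.6% below and 32.5% above. Summed over the 46 loci, the normalised read count was 433156 and 404932 in KO and 439280 and 425048 in WT, so the ranges of the genotypes overlapped.

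**Figure D1:**
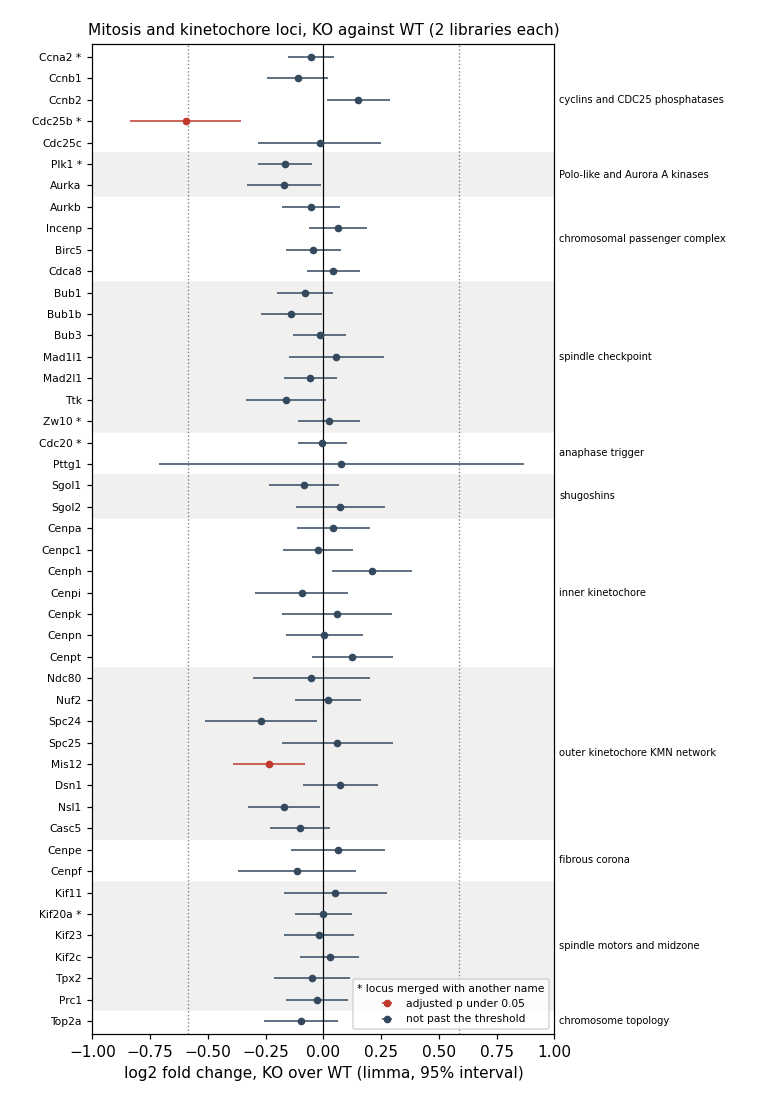
Log2 fold change of KO over WT for each of the 46 loci, ordered by role, with points for the limma estimate, bars for its 95% interval, and dotted lines at 1.5-fold. Cdc25b and Mis12 are the 2 called loci, and the interval crosses a dotted line for Cdc25b and Pttg1.

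The libraries held 83586916 and 76688583 recovered reads in KO and 46597871 and 49764454 in WT. Asxl1 itself matched the labels, with 146 and 135 in KO libraries against 9742 and 9472 in WT libraries (log2 fold change -6.09 ± 0.09 SE, adjusted p = 8.89e-06). Kit, the receptor of the gate, had 18483 and 18889 in KO and 17739 and 16149 in WT, and the T-cell gene Cd3e had 9.10 to 23.9 in KO and 26.8 to 32.4 in WT. Of the 5 gate markers limma called 1 higher and 1 lower, and all 5 had an unadjusted p under 0.05, 2 higher and 3 lower. The locus of Cd34, a progenitor surface marker, which also names microRNA and Riken genes, fell, with 6529.5 and 6544 in KO and 11174 and 12007 in WT, and Ptprc, the CD45 gene of blood cells, rose by 0.33 on the log2 scale. Of 4 tested markers of lineages that the gate removes, 1 was called higher and 1 lower, with sums of 59519 and 54994 in KO and 42127 and 45143 in WT. Their fitted values ran from -0.94 to 0.77 around a median of -0.13, so these markers did not share a direction. The myeloid gene Itgam, which makes up most of these sums and had the highest fitted value of the list, rose. It had 45203 and 42795 in KO and 24639.9 and 26902 in WT. Calls on the marker lists of other cells stand beside the 20.9% of all tested loci called in either direction. Of 11 tested mature neutrophil genes limma called 10 higher, and the fitted values of the 11 ran from 0.67 to 1.13. Their summed values were 2108178 and 1970453 in KO and 1047307 and 1168902 in WT. Of 10 erythroid genes 6 were called higher, and the fitted values of the 10 ran from 0.22 to 1.09. Their sums were 145902 and 162540 in KO and 85931 and 92769 in WT. Of 10 B lineage genes 4 were called lower, with fitted values of the 10 from -0.86 to -0.32 and an unadjusted p under 0.05 for all 10. Their sums were 69187 and 47936 in KO and 89285 and 88180 in WT. Of the tested loci on other lists, 2 of 10 T and NK genes were called lower, and 2 of 9 monocyte and macrophage genes higher and 3 lower. Calls were lower for 5 of 8 mast cell and basophil genes and 3 of 9 stroma and endothelium genes, and higher for 2 of 8 megakaryocyte genes. The T and NK and the megakaryocyte counts were near the 20.9% of all tested loci. No listed marker locus that was found read 0 in all libraries. The part of these cell types in the values of the mitosis genes was not tested.

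Among the regulators of mitotic entry, Cdc25b had normalised read counts of 5667 and 4604 in KO and 7735 and 7719 in WT. Both KO libraries were low, the second more so, and the WT libraries nearly coincided. The value fell by 0.60 on the log2 scale (± 0.10 SE, 95% interval -0.84 to -0.35, adjusted p = 0.0122), a change of -33.9%, and edgeR gave an adjusted p of 0.0135. The locus (chromosome 2, 130995996 to 131024233, mm9) merges Cdc25b with its neighbour Spef1, which encodes a sperm flagellar protein, and their reads cannot be divided. Without WT replicate 1 the change was -0.60 with an adjusted p of 0.0581, and without WT replicate 2 it was -0.60 with 0.0512, so the call ended in both cases while the size stayed.

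The related phosphatase gene Cdc25c, at a lower level per length than most members, had 1754 and 1481 in KO and 1715 and 1550.1 in WT, and the groups overlapped (adjusted p = 0.929). Of the cyclins that drive entry into mitosis, Ccnb1 had 10179.7 and 10926 in KO and 11556 and 11240.0 in WT, and Ccnb2 had 9749 and 9055 in KO and 8512 and 8402 in WT. The genes of the B-type cyclins thus lay on opposite sides, Ccnb1 at -0.11 ± 0.05 and Ccnb2 at 0.15 ± 0.06 (SE), and neither passed the threshold (adjusted p = 0.189 for Ccnb1 and 0.101 for Ccnb2, limma). Ccna2, the cyclin A gene of S and G2 phase, shares its locus with the exosome gene Exosc9, and this locus had 25182 and 24985 in KO and 26109.8 and 25968 in WT (-0.05 ± 0.04 SE).

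Plk1, the Polo-like kinase that acts from centrosome maturation to cytokinesis, had 11511 and 11277 in KO and 13045 and 12502 in WT. The groups did not overlap. The log2 fold change was -0.16 ± 0.05 (SE, 95% interval -0.28 to -0.05), and the locus (chromosome 7, 129276554 to 129313389, mm9) includes the dynactin gene Dctn5. Its adjusted p was 0.0584 with limma and 0.0473 with edgeR, on either side of the threshold. Aurka, the kinase of centrosomes and spindle poles, had 4884 and 5284 in KO and 5897 and 5547 in WT (-0.17 ± 0.06 SE, adjusted p = 0.112).

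**Figure D2:**
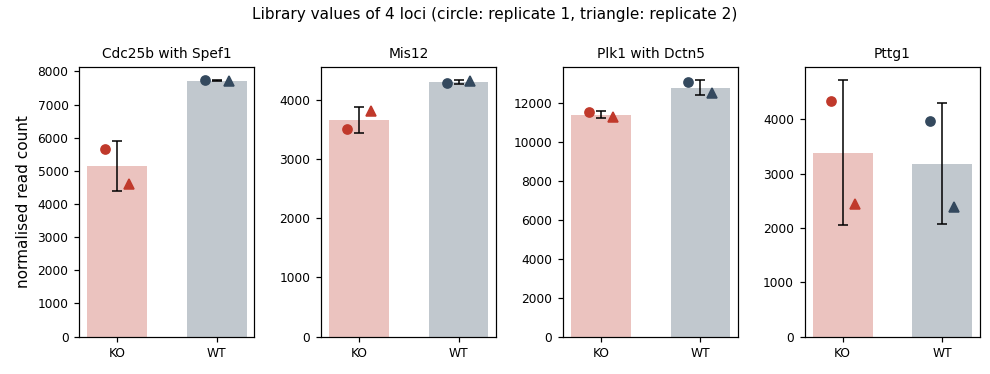
Normalised read counts of 4 loci in KO (left, red) and WT (right, grey): symbols are libraries, bars are means and whiskers are the SD of 2 libraries. At Cdc25b, Mis12 and Plk1 both KO libraries lie below both WT libraries, whereas at Pttg1 the replicates of each genotype lie far apart (4332 and 2446 in KO, 3973 and 2394 in WT).

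Genes of the outer kinetochore, where the KMN network (KNL1, the MIS12 complex and the NDC80 complex) binds microtubules, included the other called member. Mis12 (chromosome 11, 70833112 to 70840636, mm9) had 3505 and 3811 in KO and 4282 and 4324 in WT. It fell by 0.24 on the log2 scale (± 0.06 SE, 95% interval -0.39 to -0.08), and its adjusted p of 0.0499 was next to the threshold. With edgeR the adjusted p was 0.067. Without WT replicate 1, WT replicate 2 or KO replicate 1 the call of Mis12 ended, with log2 fold changes of -0.24, -0.23 and -0.17 and adjusted p-values of 0.207, 0.214 and 0.0919.

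Its partners in the MIS12 complex did not share a direction. Nsl1 had 2086 and 2095 in KO and 2371 and 2333 in WT (-0.17 ± 0.06 SE, adjusted p = 0.111), whereas Dsn1 had 3694 and 3844 in KO and 3441 and 3732 in WT (0.07 ± 0.07 SE). In the NDC80 complex, which contacts the microtubule directly, Spc24 had 2262 and 2723 in KO and 3063 and 2926 in WT (-0.27 ± 0.10 SE, adjusted p = 0.104). Its groups did not overlap, but the KO libraries differed from each other by more than KO replicate 2 differed from WT. The other subunits of that complex, Ndc80, Nuf2 and Spc25, had fitted values of -0.05, 0.02 and 0.06, and their groups overlapped. Casc5, which encodes the scaffold KNL1, had 7719 and 8222 in KO and 8536 and 8570.3 in WT (-0.10 ± 0.05 SE, adjusted p = 0.213).

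Regulatory sequence is shown for the loci with the lowest p-values, Cdc25b, Mis12 and Plk1, and for Top2a, the member with the highest level per length. Promoters of G2 and M phase genes are known for CCAAT boxes, which bind NF-Y, and for the cell cycle homology region with the core TTTGAA, through which the DREAM complex represses them in resting cells. The 250 bases before the annotated start are given 5′ to 3′ from RefSeq (GRCm38.p6), with CCAAT and TTTGAA in capitals, also where they are on the other strand (ATTGG and TTCAAA). The windows are chr2:131186698-131186947 on the plus strand for Cdc25b, chr11:71019361-71019610 on the plus strand for Mis12, chr7:122159185-122159434 on the plus strand for Plk1 and chr11:99024190-99024439 on the minus strand for Top2a.
Cdc25b: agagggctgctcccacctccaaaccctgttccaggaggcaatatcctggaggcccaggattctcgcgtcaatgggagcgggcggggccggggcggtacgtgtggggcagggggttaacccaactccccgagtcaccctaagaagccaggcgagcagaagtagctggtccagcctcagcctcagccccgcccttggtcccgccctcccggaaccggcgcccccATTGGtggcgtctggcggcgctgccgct
Mis12: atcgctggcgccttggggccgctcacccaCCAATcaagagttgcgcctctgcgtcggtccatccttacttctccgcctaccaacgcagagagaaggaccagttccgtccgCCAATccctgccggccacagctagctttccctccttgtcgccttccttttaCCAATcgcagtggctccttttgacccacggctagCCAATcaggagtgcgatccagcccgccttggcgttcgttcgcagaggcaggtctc
Plk1: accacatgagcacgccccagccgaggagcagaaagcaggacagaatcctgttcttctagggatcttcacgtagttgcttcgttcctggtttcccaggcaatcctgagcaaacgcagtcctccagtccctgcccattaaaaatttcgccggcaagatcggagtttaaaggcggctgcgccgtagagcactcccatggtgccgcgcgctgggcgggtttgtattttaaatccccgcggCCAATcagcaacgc
Top2a: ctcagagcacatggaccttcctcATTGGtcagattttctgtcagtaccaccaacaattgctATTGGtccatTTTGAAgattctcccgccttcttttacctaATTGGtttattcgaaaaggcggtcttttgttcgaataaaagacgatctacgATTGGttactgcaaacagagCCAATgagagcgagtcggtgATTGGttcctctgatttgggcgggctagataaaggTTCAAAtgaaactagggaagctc

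In these stretches Mis12 held 4 CCAAT, Cdc25b and Plk1 1 each, and Top2a 6 CCAAT with 2 TTTGAA. Both motifs were searched on both strands from 250 bases before to 50 after the start, a window that adds 1 TTTGAA for Plk1. RefSeq windows were matched for 38 of the 46 genes, none of them on chromosome 18. CCAAT was in a window of 27 of the 38 (71.1%), against 41.1% of all genes in the RefSeq table. TTTGAA was in a window of 20 (52.6%), against 20.2% of all genes, and both motifs were in windows of 16 (42.1%), against 7.97%. The motifs overlapped each other in 1 window of a member. Of the called loci, Cdc25b and Mis12 held CCAAT without TTTGAA. The similar sequence TTCGAA, not set in capitals above, was in the printed Top2a stretch and in the Cdc25b window, there within the 50 bases after the start. It was in a window of 5 of the 38 genes (13.2%), against 1.80% of all genes. A match describes the letters and is no evidence of binding.

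At the inner kinetochore, the layer built on nucleosomes with the histone variant CENP-A, 0 of 7 members passed the threshold in limma or edgeR, and 1 had an unadjusted p under 0.05. That gene, Cenph, had 2675 and 2471 in KO and 2199 and 2242 in WT, the highest fitted value of the 46 (0.21 ± 0.07 SE, 95% interval 0.04 to 0.39, adjusted p = 0.0843). Cenpt, whose product links the centromere to the NDC80 complex, had 1829 and 1778 in KO and 1676 and 1633 in WT (0.12 ± 0.07 SE, adjusted p = 0.259). Both KO libraries were above both WT libraries for 2 of the 7, Cenph and Cenpt, and below them for none. Over all tested loci the shares were 32.5% above and 33.6% below, so the 2 above are near the share of all loci. Cenpa, the CENP-A gene, had 9958 and 9088 in KO and 9541 and 8934 in WT, with overlapping groups, and Cenpc1, Cenpi, Cenpk and Cenpn overlapped as well.

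The spindle checkpoint genes, whose products hold back the APC/C, ranged from -0.16 to 0.05 in log2 fold change. Of 7 members 0 passed in limma or edgeR, and 1, Bub1b, had an unadjusted p under 0.05. Bub1b, which encodes the checkpoint component BUBR1, had 14667 and 13549 in KO and 15507 and 15536 in WT (-0.14 ± 0.05 SE, adjusted p = 0.118). Ttk, the MPS1 kinase gene that starts the signal, had 4022 and 3988 in KO and 4748 and 4239 in WT (-0.16 ± 0.07 SE, adjusted p = 0.149). Both KO libraries also lay below both WT libraries for Bub1 and for Mad2l1, the CDC20 inhibitor gene, by -5.26% and -3.89% in the fit. Bub3, Mad1l1 and Zw10 overlapped. The Zw10 locus carries a second name, MmZW10, that the annotation used here does not list.

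The chromosomal passenger complex corrects faulty attachments through Aurora B. Its 4 genes Aurkb, Incenp, Birc5 and Cdca8 had log2 fold changes between -0.05 and 0.06, with 0 called by limma or edgeR and 0 at an unadjusted p under 0.05. The SE of these values was 0.05. Aurkb had 7701 and 7754 in KO and 8219 and 7819 in WT. The scaffold gene Incenp had 14796 and 13824 in KO and 13686 and 13659 in WT, so both KO libraries were higher for Incenp and lower for Aurkb.

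Of the genes that control the start of anaphase, the locus of Cdc20, the APC/C activator, had almost equal values in all libraries, 13223 and 13228 in KO and 13278 and 13256 in WT. It also holds Elovl1, a fatty acid elongase gene. Pttg1, which encodes securin, the inhibitor of separase, had the widest spread of the 46 loci. It had 4332 and 2446 in KO and 3973 and 2394 in WT, so replicate 1 was high and replicate 2 low in both genotypes (chromosome 11, 43233749 to 43239750, mm9). The log2 fold change of KO over WT was 0.08 ± 0.32 (SE, 95% interval -0.71 to 0.87), an interval that leaves room for a change of more than 1.5-fold either way. Genotype is the only term of the fit, so this SE includes the difference between replicate 1 and replicate 2. Between same-numbered libraries the log2 value of KO over WT was 0.12 and 0.03, though the labels do not state that the numbers mark pairs. The same numbers separated the libraries by sex-linked transcripts: the locus of Xist had 89290 and 147 in KO and 103006 and 2123 in WT, and the Y-linked locus Eif2s3y had 3.03 and 7647 in KO and 11.7 and 6581 in WT. The part of this difference in the Pttg1 values was not tested. The shugoshin genes, whose products protect centromeric cohesin, did not pass: Sgol1 had 4056 and 3790.0 in KO and 4213 and 4102 in WT, and Sgol2 had 5819 and 5043 in KO and 5252 and 5044 in WT.

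For the fibrous corona, the outermost kinetochore layer, and for the spindle motors, the gap between the KO libraries was larger than the fitted difference of KO from WT. That sets single libraries against means, which vary less. Cenpf had 9426 and 7539 in KO and 9236 and 9007 in WT, and Cenpe, a kinesin gene, had 13988 and 11892 in KO and 12677 and 12019 in WT. Kif11, the kinesin that pushes spindle poles apart, had 24683 and 20308 in KO and 21434 and 21795 in WT (0.05 ± 0.09 SE). Of the 6 genes for motors and midzone proteins, 0 were called by limma or edgeR and 0 had an unadjusted p under 0.05, with values between -0.05 and 0.05. Kif20a is counted in a locus with Cdc23 and Brd8 on chromosome 18, which had 25688 and 24011 in KO and 25078 and 24586 in WT. Tpx2, a spindle assembly factor, lies 451 kb from Asxl1 and had 15472 and 13714 in KO and 15308 and 14862 in WT (-0.05 ± 0.07 SE). Besides Tpx2, Dsn1 was the only other member within 10 Mb of Asxl1.

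Top2a, the topoisomerase that untangles sister chromatids, had 69669.8 and 63455 in KO and 74059 and 68278 in WT (-0.10 ± 0.07 SE, adjusted p = 0.332), with overlapping groups. Per kb of merged GENCODE M21 exons, its level was the highest of the 40 loci that hold a member alone, with 7385 in KO and 7896 in WT. Ccnb2 followed with 6141 in KO and 5524 in WT, and Cenpk was lowest with 290.2 in KO and 278 in WT. The merged exons can exceed the counted locus, as for Mad2l1 with 8390 exon bases on a locus from 66485461 to 66491014. The order per length therefore also depends on the annotation.

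**Figure D3:**
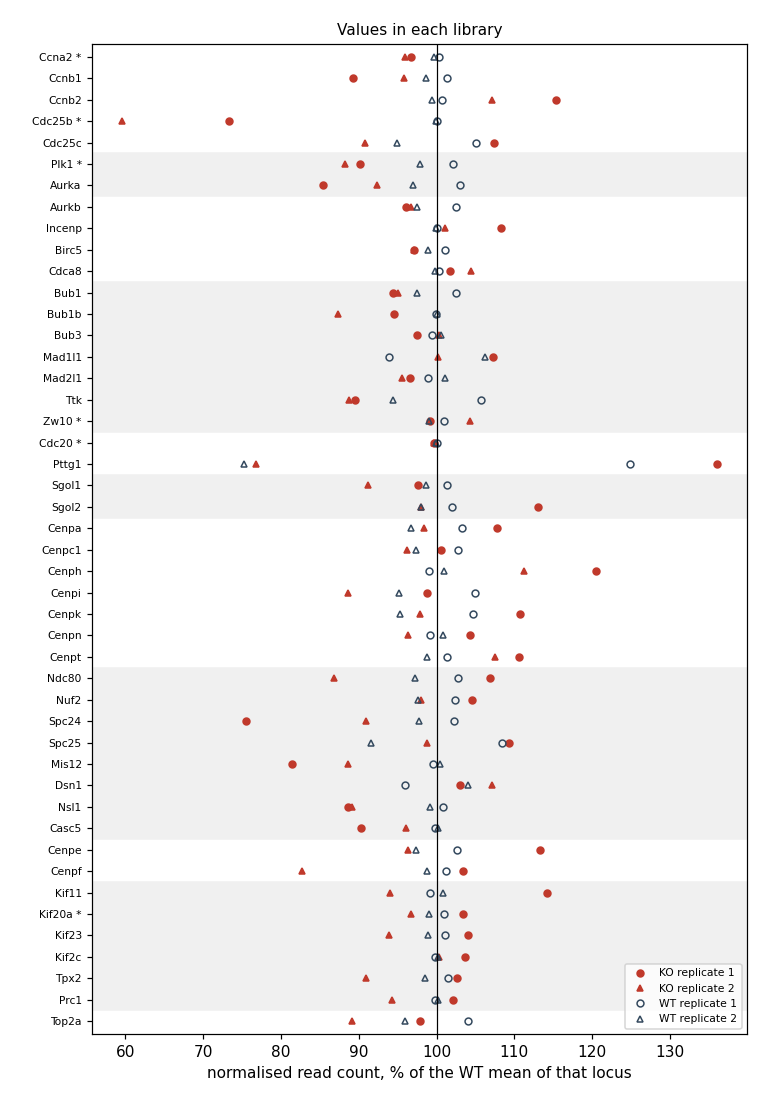
Normalised read count of each locus in each library, as a percent of the WT mean of that locus, with filled red symbols for KO, open symbols for WT, circles for replicate 1 and triangles for replicate 2. KO replicate 1 and KO replicate 2 often fall on opposite sides of WT, as for Kif11 and Cenpf, and at Cdc25b both fall far below it.

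The libraries of a genotype were not alike in this machinery. KO replicate 1 was above KO replicate 2 at 33 of the 46 loci (71.7%), against 49.96% of all tested loci, and WT replicate 1 was above WT replicate 2 at 34 (73.9%), against 47.5%. At 25 loci both held. With 33 and 34 of 46 loci on that side, a large overlap arises without agreement between the genotypes. The share of all tested loci where both held was not computed, and no agreement is read from the 25. Replicate numbers also separated the libraries by sex-linked transcripts, as given with Pttg1, and the part of this in these differences was not tested. The median log2 difference was 0.10 between the KO libraries and 0.03 between the WT libraries, where all tested loci had medians of -0.00 and -0.01. At 25 of the 46 loci the gap between the KO libraries was larger than the fitted difference of KO from WT. Single libraries vary more than means of 2, so such a count can arise without any difference particular to these loci. The share over all tested loci was not computed, and no conclusion is drawn from the count. In the first replicate pair the median log2 value of KO over WT was 0.01, and in the second it was -0.05. Without KO replicate 2, limma called 3 members higher, Ccnb2, Cenph and Kif11, and 4 lower, Aurka, Cdc25b, Spc24 and Mis12. Without KO replicate 1 it called 0 higher and 3 lower, Bub1b, Cdc25b and Cenpf. Without WT replicate 1 or WT replicate 2 it called 0 in either direction. Of all tested loci those fits called 23.1% without KO replicate 2, 23.5% without KO replicate 1, 6.31% without WT replicate 1 and 7.85% without WT replicate 2.

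**Figure D4:**
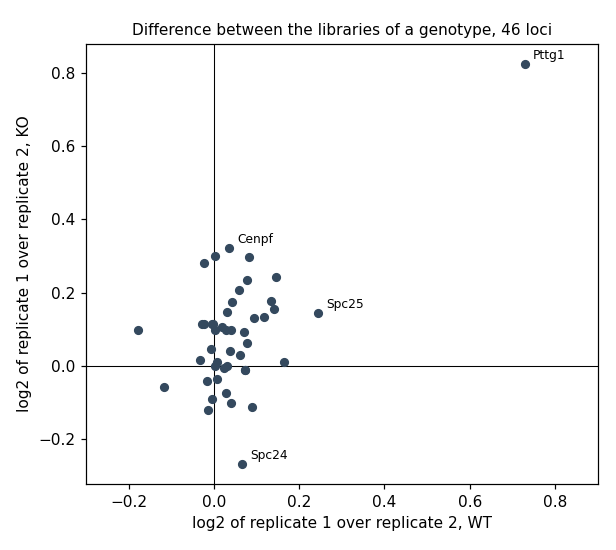
Log2 difference of replicate 1 over replicate 2 in KO (vertical axis) and in WT (horizontal axis) for the 46 loci, each point a locus. At 25 of the 46 loci replicate 1 is higher in both genotypes, Pttg1 is farthest out on both axes, and Spc24 is lowest on the KO axis.

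Scaling moved the small differences. Fitted values were below 0 at 27 of the 46 loci with the authors' scaling and at 40 on CPM, which scales reads to the library total. On CPM 24.6% of all tested loci were called. Members called lower were 6 (Cdc25b, Mis12, Plk1, Aurka, Bub1b and Nsl1) and higher 0 on that scale, with a median of -0.09. The median of all tested loci was -0.07, so the members' median relative to all loci stayed at -0.01. Among all calls, 57.0% were higher with the authors' scaling and 39.2% on CPM.

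Other genes of mitosis, outside the 46, were read from the same fit. Over 86 tested loci of 4 lists, 2 were called higher and 3 lower, which is 5.81%, with a median of 0.00. Over all tested loci 11.9% were called higher and 8.97% lower, 20.9% in either direction. Cdc25a, the CDC25 phosphatase gene of the G1/S and G2/M transitions, rose, with 11533 and 12595 in KO and 9704 and 9775 in WT (0.31 ± 0.06 SE, adjusted p = 0.0178), opposite in direction to the Cdc25b locus. Cit, the citron kinase gene of cytokinesis, rose by 0.30 ± 0.07. The genes called lower were Cenpb, whose product binds centromeric repeats (3176 and 2819 in KO, 4025 and 3876 in WT, -0.40 ± 0.08), the locus of the microtubule-binding kinetochore gene Ska2 (-0.34 ± 0.07) and Cep55, a gene of the midbody (-0.33 ± 0.09, adjusted p = 0.0496, limma). The value for Cep55 is next to the threshold. On its list of spindle, motor and cytokinesis genes edgeR and limma-voom called 0 lower, and DESeq2 called 1. Of 17 APC/C loci 0 were called by limma, edgeR, DESeq2 or limma-voom, and 1 was lower at an unadjusted p under 0.05. In that order the tests called 20.9%, 20.6%, 25.0% and 19.0% of all tested loci, and 37.7% had an unadjusted limma p under 0.05. Cdc26, an APC/C subunit gene, had the smallest p (-0.17 ± 0.06 SE, adjusted p = 0.103).

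Of 20 genes of S phase, limma called 0 and had 2 lower at an unadjusted p under 0.05, edgeR called 1 lower, DESeq2 2 lower and limma-voom 0. Of all tested loci limma called 20.9%, edgeR 20.6%, DESeq2 25.0% and limma-voom 19.0% in either direction. The fitted values ranged from -0.17 to 0.14 around a median of -0.03. Uhrf1, the gene of a factor that maintains DNA methylation, was lowest, with 24433 and 25865 in KO and 28065 and 28514 in WT (adjusted p = 0.0536). Mki67, the gene of the proliferation marker Ki-67, named here after its values were seen, had 110335 and 101912 in KO and 96726 and 100024 in WT (0.11 ± 0.05 SE, adjusted p = 0.206).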

How the data were processed

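RNA-seq of Lin-Kit+ cells was analysed, with 2000000 cells in each library per the labels' protocols. The submitters' processing notes name STAR 2.3.1t and the build mm9. The counter, the annotation, the use of strand and the scaling software were not given in these sources. In the authors' deposited table the signal of a locus is its reads times a factor common to the library. Divided by the smallest value above 0, 100% of values were whole within 0.001, and 1 read was worth 0.758 and 0.825 in KO and 1.30 and 1.22 in WT. Dividing by these steps recovered whole reads. A count of 0 allows up to 3 reads.

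The 17956 single loci were used. The 4893 rows that join neighbouring loci were left out, and those that name a member held at most 12 reads in a library. Loci reaching 10 in 2 or more libraries entered a limma 3.58.1 fit (R 4.3.3) of log2(value + 1) with trended variance, genotype as the only term and a Benjamini-Hochberg threshold of 0.05. Fold changes are on that scale, where the added 1 makes changes of low loci look smaller. Alternatives on recovered reads were the edgeR 4.0.16 count test, which called 2839 loci, DESeq2 1.42.0 and limma-voom, and other pseudocounts, filters, scalings, a replicate block and fits without each library were run.

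Named genes were the members called by limma or edgeR, those with the smallest p in each role group, the largest changes, the merged loci and those near Asxl1. A few further members are given to complete a complex or role group. From each other list the called genes with the largest changes were named, or the smallest p. The members and lists were chosen with earlier results of these data known. Exon lengths came from GENCODE M21 and promoters from RefSeq, both of a later build than mm9, and were used only for lengths and sequences. Some marker values are not reported here.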

Additional observations from a re-analysis of the deposited data

How the results depend on the processing

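The count of 2 called members changed with the processing. Members called lower were 6 on CPM and 1 with edgeR and RLE scaling, limma-voom, no filter or a pseudocount of 0.5, and 0 were called higher in any fit on all 4 libraries. Cdc25b was lower in all 15 alternatives and called in 13 of them. Mis12 was called in 7, Plk1 in 4, and 35 of the 46 members were called in none of the 16 fits. The share of all tested loci called in none of them was not computed, and no conclusion is drawn from that count. The members' median was -0.0856 on CPM and -0.0736 with upper-quartile scaling. In those same fits 5 other mitosis genes were called lower, and the loci called lower over the whole table were 2060 on CPM and 1901 with upper-quartile scaling, which also brought the share of higher calls to 42.6%. S phase genes called lower were 3 on CPM, 2 with DESeq2 or upper-quartile scaling and 1 with edgeR and TMM or the replicate block.

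Over the fits that left out 1 library, 0 to 3 members were called higher and 0 to 4 lower, with a median between -0.0583 and 0.0273. Other mitosis genes ranged from 0 to 5 higher and 0 to 7 lower, S phase genes from 0 to 1 in each direction, and all loci from 603 to 1714 higher and 266 to 1542 lower. Where a WT library is left out, the spread comes from the KO pair, which was the less alike for these genes, and the lone WT library is assumed to vary like it.

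The labels number the replicates alike in both genotypes without saying that a number marks a shared litter or day. In both genotypes replicate 1 was high in Xist and replicate 2 in Y-linked transcripts, and the part of this in what follows was not tested. Same-numbered libraries deviated together (r = 0.25 over all 13764 tested loci and 0.51 over the 11023 with a mean above 100). With the replicate block 0 members were called higher and 2 lower, and 3439 loci in all.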
